A study of Bos taurus with 2 samples.

Results

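Chromosome 25, the shortest bovine autosome in these lists, carried 558 regions enriched for H3K4me3 in the longissimus dorsi (LD) muscle of Angus steers. They were all the peaks listed on chromosome 25, 517 tender and 459 tough peaks, merged across the groups wherever they overlapped by 1 bp or more. They made up 558 of 14264 merged regions in all and of 13912 on the 29 autosomes. The chromosome was taken by its number, but the paper on these libraries had already named it among the chromosomes with more enrichment. Its density is therefore not an independent finding. Its density, lengths and scores are set beside those of the other 28 autosomes.

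H3K4me3, histone H3 with 3 methyl groups on its lysine 4, is found at the promoters of active genes and at many CpG islands. The peaks of a chromosome therefore trace where its active and poised promoters lie, and stretches without the mark are usually poor in active genes. Bovine chromosome 25 is acrocentric, as all cattle autosomes are. Among its genes are HBA, which encodes the alpha chain of haemoglobin, SRL, encoding the calcium-binding protein sarcalumenin of the muscle reticulum, ATP2A1, the calcium pump of fast muscle fibres, ALDOA, the muscle form of aldolase, TRIM72, a membrane repair protein of muscle, and ACTB, the cytoplasmic actin. Because the build of the positions was not stated, no gene was placed at a peak.

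The mark was measured by ChIP-Seq, in which an antibody pulls down the chromatin that carries it and the DNA is sequenced. The steers were purebred animals of a single farm herd, about 12 months old at harvest. Meat aged for 14 days at 4°C was cooked and cut in the Warner-Bratzler shear force test, where the tender group of 4 steers gave 6.77 ± 0.56 kg and the tough group of 5 steers gave 19.93 ± 0.39 kg (the kind of error was not stated). The groups were picked as the steers with the lowest and the highest values of a larger set, so they are selected extremes. Equal amounts of chromatin from the steers of a group were pooled, digested with micrococcal nuclease to single nucleosomes and precipitated as 1 library per group, so the lists hold no replicates, differences between tender and tough have no replicate check, and no p-value is given. Muscle holds fibres, connective tissue, fat and vessels, and fewer cells of a type cannot be told apart from less of the mark per cell.

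A peak is scored by adding up, window by window of 200 bp, how improbable its reads would be under a Poisson background (as minus the natural log). The score rises with reads and falls with the depth of the library, and the tough library had 1.17 times the depth of the tender one in reads per window of the genome (0.182 against 0.157). On chromosome 25 the reads behind a peak followed exactly from its score for 488 tender and 444 tough peaks, those with a score up to 180. The counted tender peaks held 9 to 61 reads with a median of 22.5, and the counted tough peaks 10 to 71 reads with a median of 23.5. Most peaks thus rested on few reads. Intervals below are exact binomial 95% intervals, or order-statistic intervals for medians, and cover counting error only.

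Chromosome 25 was dense in the mark. It held 4.01% of the autosomal regions (95% interval 3.69 to 4.35%) on 1.71% of the autosomal length, taking the end of the last peak as the end of each chromosome (42.9 Mb for chromosome 25). This came to 13.0 regions per Mb against 5.42 on the other autosomes together, a fold of 2.40 (2.20 to 2.61). Of the other 28 autosomes only chromosome 19 was denser, with 15.3 regions per Mb, while chromosome 18 had 12.6 and the median of the 28 was 5.56. The 4 autosomes nearest in length, chromosomes 27, 28, 29 and 26, had 3.48 to 6.97 regions per Mb, so the density was not shared by the other short chromosomes. By base pairs, the regions covered 1689 kb of chromosome 25, or 3.94% against 1.54% elsewhere. Each group alone gave a similar picture, with 12.1 tender and 10.7 tough peaks per Mb, the second and the third highest of the 29 autosomes. Neighbouring regions are not independent, and the intervals do not allow for that.

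**Figure D1:**
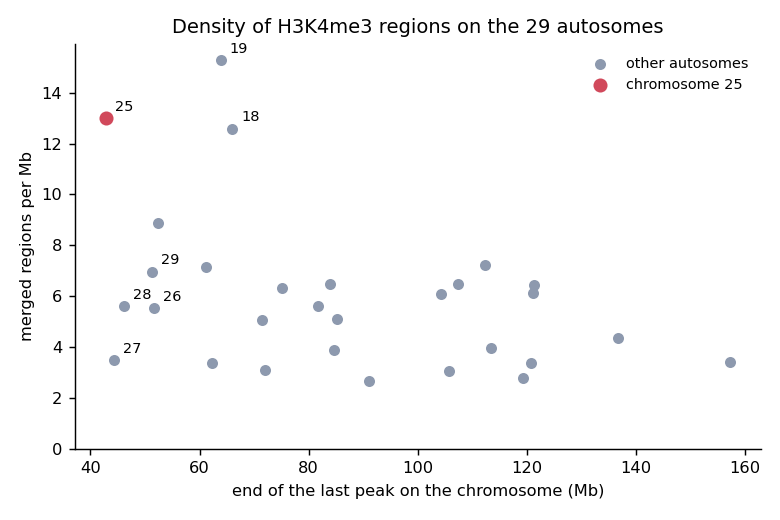
Merged H3K4me3 regions per Mb (vertical axis) against the position of the last peak in Mb (horizontal axis) for each of the 29 autosomes, 1 point each, with chromosomes 18, 19 and 25 to 29 numbered. Chromosome 25 is the leftmost point, at 42.9 Mb and 13.0 regions per Mb, above the 4 autosomes nearest to it in length (3.48 to 6.97) and below chromosome 19 (15.3).

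The regions were laid out unevenly along the chromosome. Counted in 43 bins of 1 Mb, they ranged from 0 to 44 per bin with a median of 8, and their variance was 12.3 times their mean. The fullest bins were those from 26000001 to 27000000 with 44 regions and from 27000001 to 28000000 with 43, side by side. The next were near the start of the chromosome, from 1000001 to 2000000 with 37 regions and from 2000001 to 3000000 with 35, and in its far part, from 36000001 to 37000000 with 36. These 5 bins held 195 regions, or 34.9%, a share that ranked the 17th of the 29 autosomes. In the second peak list deposited for each library, which uses other positions, the share was 32.7%, the fifth lowest of the 29. At the other extreme, 4 bins held 0 regions, those starting at 5000001, 8000001, 24000001 and 40000001. These empty bins were 9.30% of its bins, against a median of 20.7% on the other autosomes.

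Read along its length, chromosome 25 fell into 3 dense blocks with sparse stretches between them. The limits of the blocks were set after the bins had been seen, so they serve as a description. The blocks were not even inside. The last contains the empty bin starting at 40000001, and the outer bins of the middle block held 9 and 12 regions. The sparse stretch before the middle block has a bin of 18 regions, from 13000001 to 14000000. The first block, the initial 4 Mb, held 132 regions (33 per Mb). The stretch from there to 25000000 held 108 regions over 21 Mb (5.14 per Mb), close to the mean of the other autosomes. The middle block, from 25000001 to 29000000, held 108 regions again, now over 4 Mb (27 per Mb). It was followed by 10 regions in the 4 Mb from 29000001 to 33000000 (2.5 per Mb). The last block ran from 33000001 to the end and held 200 regions (20.2 per Mb). Together the 3 dense blocks held 440 regions, 78.9% of the total, on 41.7% of the length. The outermost regions were from 111201 to 115200, called in both groups with scores of 95.1 (tender) and 35.0 (tough), and from 42901001 to 42901600, called in the tough group alone with a score of 25.9 from 10 reads.

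**Figure D2:**
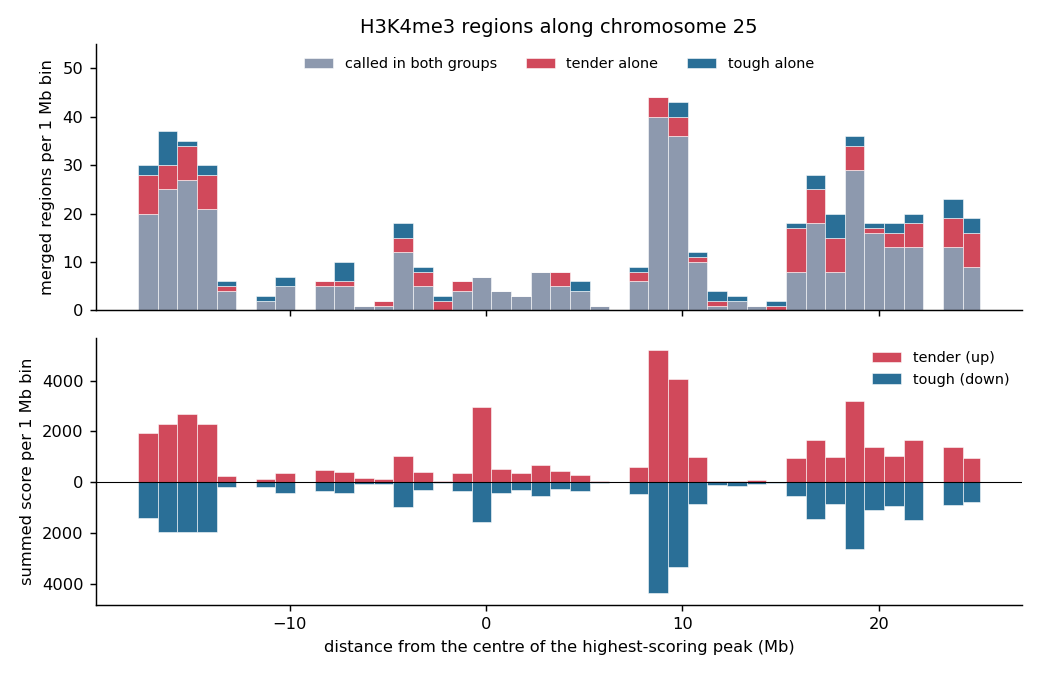
Top, merged regions per 1 Mb bin along chromosome 25, stacked by the groups in which they were called; bottom, the summed peak score per bin, tender upward and tough downward. The horizontal axis is the distance in Mb from the centre of the highest-scoring peak. The 3 dense blocks stand apart in both groups, the fullest bin holds 44 regions of which 40 were called in both groups, and the bin at 0 reaches a summed score of 2977.7 in tender and 1547.3 in tough with only 7 regions.

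Both groups drew the same map. Across the 43 bins the number of tender peaks and that of tough peaks correlated with a Spearman's rho of 0.977, a description in which the bins share libraries and neighbouring peaks. The tender list had more peaks in 22 bins, the tough list in 6, and 15 bins were equal. Among the larger differences was the bin from 33000001 to 34000000, with 18 tender against 9 tough peaks and 9 regions called in tender alone. In the opposite direction, the bin from 10000001 to 11000000 held 6 tender and 9 tough peaks. The fullest bin held 47 tender and 43 tough peaks, and 0 of its regions were called in tough alone.

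The blocks differed in how strongly and how consistently peaks were called. In the middle block the median score was 90.9 in tender and 76.6 in tough, above the 57.1 and 52.6 of the first block and the 56.0 and 57.7 of the last. Peaks called in tender alone were 11 of 107 there (10.3%, 95% interval 5.25 to 17.7%), against 27 of 124 (21.8%, 14.9 to 30.1%) in the first block and 50 of 184 (27.2%, 20.9 to 34.2%) in the last. Peaks called in tough alone were 5 of 100 (5.0%, 1.64 to 11.3%), against 12 of 108 (11.1%, 5.88 to 18.6%) and 23 of 152 (15.1%, 9.84 to 21.8%). Over chromosomes 1 to 29 the shares called alone were 21.7% in tender and 14% in tough. The intervals of the middle and the last block did not overlap for tender, while those for tough did. Because the limits of the blocks were set after the bins had been seen, this describes them and tests nothing. The middle block also had the higher scores, and a link between score and these shares was not tested across blocks. In the sparse stretch from 29000001 to 33000000 the scores were the lowest, with medians of 26.6 over 6 tender and 32.8 over 8 tough peaks.

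**Figure D3:**
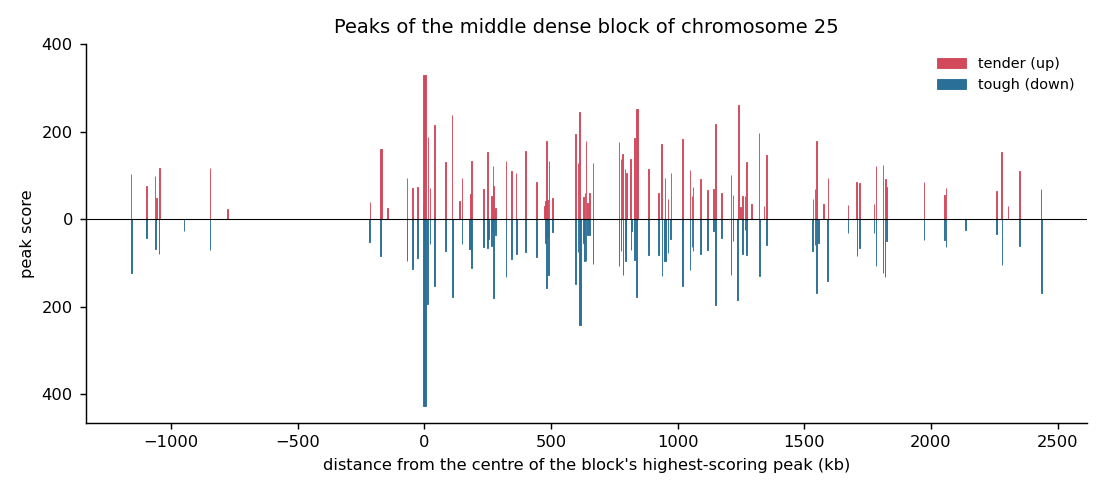
Every peak of the middle dense block of chromosome 25, drawn at its width, with its score upward for the 107 tender and downward for the 100 tough peaks. The horizontal axis is the distance in kb from the centre of the block's highest-scoring peak, a tough peak with a score of 427.7. Peaks crowd the stretch from about that peak onward, and 11 tender and 5 tough peaks have no counterpart in the other group.

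Regions often came in runs, mostly but not only within the dense blocks. A run of 5 or more regions with neighbours up to 20 kb apart was called a cluster, and chromosome 25 held 24 of them with 157 regions, 28.1% of its total, on 3.42% of its length. By this rule it had 5.59 clusters per 10 Mb, the highest of the 29 autosomes, ahead of chromosome 19 (5.32) and chromosome 18 (4.09). In the second list it had 4.32 clusters per 10 Mb and was the third, behind chromosomes 19 (5.84) and 18 (4.84). There its share of regions in clusters was 21.8%, the fourth highest, and its number of clusters, 19, the fifth. The leading place in clusters therefore rested on the list used.

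The largest cluster lay from 34853801 to 34938000 in the last block. It packed 10 regions into 84.2 kb, 5 of them called in both groups, 3 in tender alone and 2 in tough alone, and no score in it exceeded 113.6 (tender) or 136.6 (tough). The next clusters had 9 regions each and lay in the middle block. The cluster from 26798001 to 26870600 had all 9 regions called in both groups, with scores up to 244.3 and 242.0. The cluster from 26970201 to 27044600 had 8 regions in both and 1 in tough alone, with scores up to 252.2 and 177.9. Of the 4 clusters with 8 regions, that from 543601 to 585600 was the most tightly packed, since regions covered 57.6% of its 42.0 kb. The cluster from 2272601 to 2352400 spread its 8 regions over 79.8 kb. In each of the 4, 6 regions were called in both groups and 2 in tender alone.

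Gaps were short on chromosome 25. The median distance from a region to the next was 21.6 kb (quartiles 7.0 and 54.2 kb), the second shortest of the 29 autosomes after chromosome 19 (20.2 kb) and below the median of the others (58.8 kb). Of its 557 gaps, 103 (18.5%) were 5 kb or less. At the long end, 16 gaps of 500 kb or more took up 17.9 Mb, or 41.7% of the chromosome, against a median share of 57.3% on the other autosomes. All but 1 of these 16 lay between 4 and 33 Mb, outside the first and the last block. The longest gap ran from 4132401 to 6275600 (2143 kb) and began soon after the first block. The next ran from 23105601 to 25045000 (1939 kb), just ahead of the middle block. They were followed by those from 7934401 to 9347800 (1413 kb), from 11604201 to 12922600 (1318 kb) and from 31383401 to 32639800 (1256 kb). Even the longest was short for an autosome, the median of the longest gaps elsewhere being 4647 kb.

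Only 2 regions stood alone, with gaps of 500 kb or more on both sides. The region from 11601801 to 11604200 scored 150.6 in tender (46 reads) and 81.4 in tough (31 reads). The region from 31378601 to 31383400 was 4800 bp long and scored 89.2 in tender (35 reads) and 69.0 in tough (31 reads). Both were called in both groups with scores above the medians of the chromosome, so neither was a marginal call.

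The highest score of chromosome 25 belonged to a short peak in the sparse stretch, from 17729801 to 17731200. It was 1400 bp long in both groups, just 7 windows, and scored 2371.6 in tender and 1125.1 in tough. Per window this was 338.8 and 160.7, while the median peak of the chromosome had 6.24 in tender and 4.85 in tough and the next highest had 41.1 and 29.04. A single peak thus made up 5.55% of the summed tender score and 3.3% of the summed tough score of the chromosome. It gave 79.6% (tender) and 72.7% (tough) of the score of its bin, the fourth highest tender bin although it held 7 regions. In the second list the region of chromosome 25 with the highest score was again short, 1600 bp from 11140201 to 11141800 in the positions of that list, but it scored 816.9 in tender and 1347.9 in tough. Whether it is the same site was not tested. Regions with like scores began further along in the second list, at 1986401 against 1505201 and at 27751401 against 26196001, while this one began earlier. The order of the groups at the highest score was opposite in the 2 lists, which cannot be read as a change of order at 1 site.

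The next 4 regions by score were broad, and in them the groups were close. The region from 39417201 to 39433400 in the last block spanned 16200 bp, with a summed score of 599.4 over 3 tender peaks and 554.6 over 2 tough peaks. The region from 3417601 to 3427800 near the end of the first block was called as 1 peak in each group, with 455.0 in tender and 429.3 in tough. From 1505201 to 1524800 lay the longest region of the chromosome, 19600 bp, cut into 4 tender and 2 tough peaks with sums of 433.8 and 435.7. The region from 26196001 to 26210200, which opens the crowded part of the middle block, had 362.7 in tender and 427.7 in tough.

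The next 4 all lay in the middle block. From 27439201 to 27443800 the scores were 259.5 in tender and 185.5 in tough, and from 27038401 to 27044600 they were 252.2 and 177.9. From 26811801 to 26819600 they were 244.3 and 242.0, and from 26311801 to 26316000 they were 237.2 and 178.5. The last of the 10 highest-scoring regions was from 516001 to 521600 in the first block, with 236.2 and 175.1. Of these 10 regions 9 lay in the dense blocks, 5 of them in the middle one, and all 10 were called in both groups.

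Tough peaks were longer than tender peaks on chromosome 25. The median length was 2000 bp in tender (quartiles 1600 and 2800 bp, 95% interval of the median 2000 to 2200 bp) and 2600 bp in tough (1800 and 3500 bp, 2400 to 2600 bp). On the other autosomes the medians were 2000 and 2400 bp. Scores ran slightly the other way, with medians of 63.1 in tender (58.1 to 67.5) and 59.1 in tough (54.3 to 63.3), intervals that overlap. The score per window was 6.24 in tender (5.82 to 6.73) and 4.85 in tough (4.41 to 5.06), so tough peaks spread a like score over more windows. Both medians of length were near those elsewhere, and the difference between groups was seen across the autosomes rather than on chromosome 25 in particular.

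Broad regions took up much of the covered sequence. The 51 merged regions of 5 kb or more were 9.14% of the regions and held 20.2% of the covered base pairs, and 50 of them were called in both groups. Single peaks of that length were fewer, 14 tender (2.71%, 95% interval 1.49 to 4.50%) and 31 tough (6.75%, 4.63 to 9.45%), much as on the other autosomes (2.96 and 6.93%). The longest tender peaks lay from 3418201 to 3427800 (9600 bp), from 26199401 to 26208000 (8600 bp), from 1513401 to 1520800 (7400 bp), from 13337601 to 13344600 (7000 bp) and from 39421001 to 39427800 (6800 bp). The longest tough peaks overlapped the same 5 sites, from 26196201 to 26210200 (14000 bp), from 39422601 to 39433200 and from 1514201 to 1524800 (10600 bp each), from 13337601 to 13348000 (10400 bp) and from 3417601 to 3427800 (10200 bp). At each of these 5 sites the tough peak was the longer. The site from 13337601 was the only one outside the dense blocks.

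**Figure D4:**
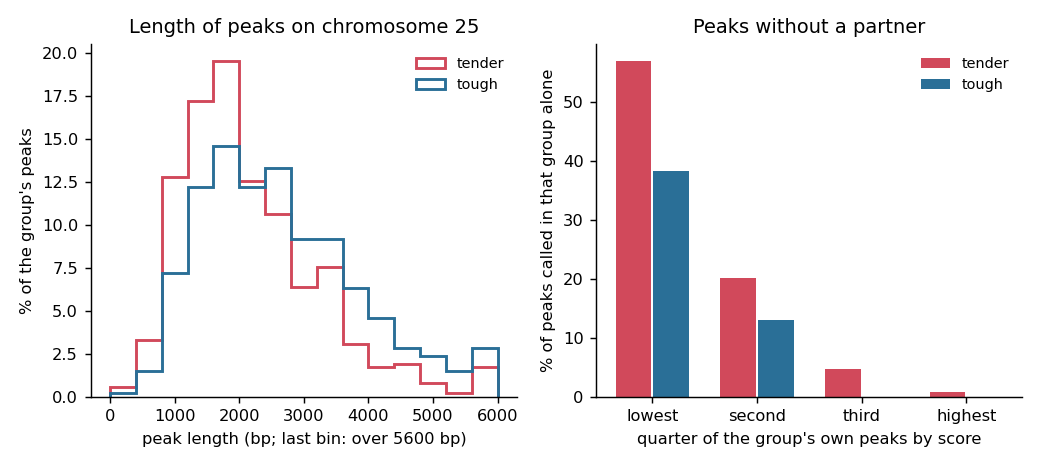
Left, the length of the 517 tender and 459 tough peaks of chromosome 25, as a percentage of each group's peaks in bins of 400 bp, with peaks over 5600 bp in the last bin. Right, the percentage of peaks called in that group alone, for the group's own peaks split by score into 4 classes of nearly equal number. It falls from 56.9% to 0.78% in tender and from 38.3% to 0% in tough.

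Most regions were called in both groups. Of the 558 regions 392 (70.3%, 95% interval 66.3 to 74.0%) were in both, 107 in tender alone and 59 in tough alone. As a share of each list, 107 of 517 tender peaks (20.7%, 17.3 to 24.4%) had no tough peak overlapping them, against 21.7% over chromosomes 1 to 29. In the tough list 59 of 459 peaks (12.9%, 9.93 to 16.3%) had no tender peak, against 14% over chromosomes 1 to 29. Both shares were near the background, so the peaks of chromosome 25 were called in a single group about as often as peaks elsewhere.

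Peaks called in a single group were weak. Those of tender alone had a median score of 30.3 and a median of 13 reads, against 75.5 and 25 reads for tender peaks with a tough partner. Those of tough alone had a median score of 30.5 and 14 reads, against 64.9 and 26 reads. On the other autosomes the median scores of peaks called alone were 29.4 in tender and 30.4 in tough. Peaks with a partner there had 75.3 and 65.3, so this was not particular to chromosome 25. When the peaks of each list were split by score into 4 classes of nearly equal number, 74 of 130 tender peaks in the lowest class were without a partner, and 1 of 129 in the highest. In the tough list the numbers were 44 of 115 in the lowest class and 0 in both upper classes. Among peaks above the median score a missing partner was therefore rare, 7 tender and 0 tough peaks. The split into classes was not made for the other autosomes.

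The tender peak without a partner that scored highest lay from 2769801 to 2772400 in the first block, with a score of 121.8 from 39 reads. The next lay from 34860401 to 34863800, inside the largest cluster, with 99.2 from 36 reads. They were followed by peaks from 12922601 to 12924400 (80.6, 28 reads), from 39297401 to 39302200 (74.5, 32 reads) and from 2350801 to 2352400 (74.3, 25 reads). The highest-scoring peaks of tough alone were lower than all of these. They lay from 39751401 to 39755600 (58.1, 27 reads), from 38712601 to 38717800 (55.6, 26 reads), from 27758201 to 27762600 (54.1, 25 reads), from 10321601 to 10325600 (53.8, 24 reads) and from 13752601 to 13754800 (47.3, 18 reads). The first 4 of these tough peaks were 4000 to 5200 bp long with scores per window of 2.14 to 2.77, under the tough median of 4.85.

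Where 1 tender and 1 tough peak overlapped each other and no further peak, they were compared as a pair, and chromosome 25 gave 374 pairs. Their scores followed each other with a Spearman's rho of 0.748 (0.757 on the other autosomes), and 0.746 without the pair of the highest peak. The score was higher in tender in 251 pairs and in tough in 123, and the median log2 ratio of tender to tough was 0.20 (0.15 to 0.27), against 0.19 elsewhere. At least 2 times as high in tender were 29 pairs (7.75%, 5.25 to 10.9%), against a background of 7.51% over chromosomes 1 to 29. At least 2 times as high in tough were 5 pairs (1.34%, 0.435 to 3.09%), against 1.82%. Both counts were near the background, so pairs of chromosome 25 passed the factor of 2 about as often as pairs elsewhere.

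The excess of tender among these 34 pairs depended on the scale, and the part of depth in it was not tested. Tender made up 85.3% of the 34, but 63.0% (17 against 10 pairs) once the ratio was divided by its median over the autosomal pairs. These were 4.55 and 2.67% of the pairs, against a background on that scale of 3.79% tender and 3.95% tough. Dividing by the median of the same pairs centres that background, so its near balance is no finding. In reads, not divided by depth, 11 pairs were at least 2 times as high in tender and 7 in tough (61.1% tender) among the 347 pairs with reads counted in both groups, 3.17 and 2.02% of them against 2.77 and 2.25% over chromosomes 1 to 29. By score per window the split widened to 85 against 10 pairs, 22.7 and 2.67% against a background of 20.4 and 2.7%, so the widening was seen across the autosomes as well.

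**Figure D5:**
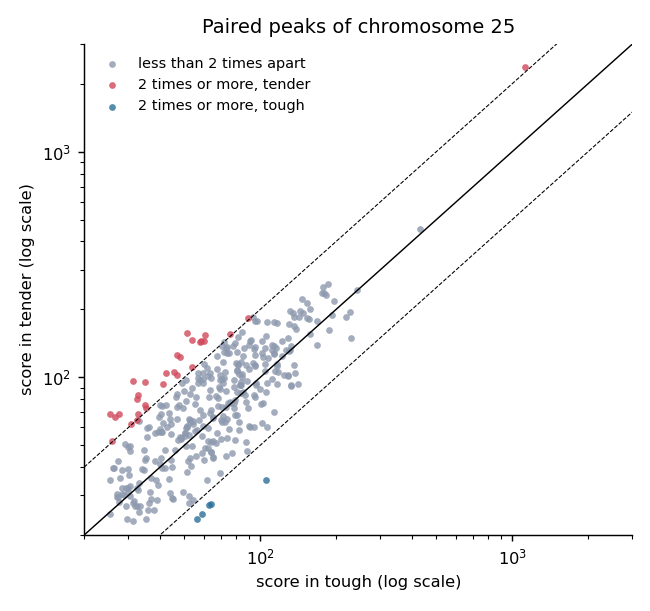
Score in tender (vertical) against score in tough (horizontal), both on log axes, for the 374 pairs of chromosome 25. The solid line marks equal scores and the dashed lines a factor of 2; 29 pairs lie at or above the upper dashed line and 5 at or below the lower, and the pair at the upper right is the highest-scoring peak (2371.6 against 1125.1).

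Among pairs with a score of at least 100 in either group, 139 in all, 15 were at least 2 times as high in tender (10.8%) and 1 in tough (0.719%), near the 10.4 and 1.2% of such pairs over chromosomes 1 to 29. The pairs below were picked for their score ratios, so their read ratios and bounds describe them and test nothing. The largest ratio towards tender was in the pair at 20096001 to 20100800, with 156.8 in tender and 51.3 in tough. In reads this was 54 against 22, a ratio of 2.45 (1.47 to 4.23), where the depths alone would give 0.858. The next pairs had 145.7 against 53.4 from 3931001 to 3933800, 125.2 against 46.8 from 39344401 to 39347600, 123.4 against 48.0 from 36627601 to 36629800 and 153.9 against 60.4 from 2592201 to 2595000. Their read ratios were 2.13 to 2.22, with lower bounds of 1.245 to 1.29. In each of the 5 the tender peak was also the longer, by 800 to 2800 bp.

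Towards tough, the pair from 3340801 to 3345800 had 35.1 in tender and 105.8 in tough, 15 against 43 reads, a ratio of tough to tender of 2.87 (1.56 to 5.56). The tough peak was 5000 bp long and the tender peak 1800 bp. No other pair past a score of 100 reached a factor of 2 towards tough. The next had 60.2 against 105.9 (tough peak from 39160201 to 39162200), 62.7 against 101.7 (from 14174801 to 14176800), 70.4 against 113.0 (from 26155001 to 26157000) and 149.8 against 228.7 (from 13337601 to 13348000). Of the first 3 of these, the read ratios of tough to tender were 1.46 to 1.73 with lower bounds under 1.

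Summed over the 347 counted pairs, chromosome 25 held 9650 tender and 9104 tough reads. The tender share was 51.5% (50.7 to 52.2%), against 50.6% (50.4 to 50.7%) in the pairs of the other autosomes, and 46.2% if reads in peaks followed the depths. It was the second highest of the 29 autosomes, which ran from 49.8% on chromosome 27 to 52.0% on chromosome 14, and in the second list it was the sixth with 51.1%. The margin over the other autosomes was thus under 1 percentage point, and how far it would vary between libraries of 1 group is not known.

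Within pairs the tough peak was the longer in 209 (55.9%) and the tender peak in 127 (33.96%), and 38 were equal. The median difference was 200 bp (200 to 400 bp). On the other autosomes the tough peak was the longer in 59.9% and the tender peak in 30.2%. Lengths followed each other less closely than scores, with a Spearman's rho of 0.429, against 0.521 for the pairs of the other autosomes together. This was the second lowest of the 29 autosomes and again the second lowest in the second list, with 0.40, where the autosomes ran up to 0.652.

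The pairs that differed most in length show the 2 kinds of difference. From 34080201 to 34087000 the tough peak was 6800 bp long and the tender peak inside it 2400 bp, with scores of 118.2 and 105.7. From 26380001 to 26385600 the lengths were 5600 bp in tough and 1400 bp in tender, with scores of 67.6 and 56.7. From 1115201 to 1121000 the tough peak was 5800 bp long with a score of 77.7, and the tender peak only 1600 bp with 138.2, so the longer peak had the lower score. The pairs with tough peaks from 33152001 to 33157600 and from 39811201 to 39817400 differed by 4000 and 3800 bp. In the other direction, the tender peak from 1286001 to 1292000 was 6000 bp long and its tough partner 1800 bp, with scores of 57.5 and 40.2. The tender peaks from 27038401 to 27044600, from 20096001 to 20100800, from 2280201 to 2284600 and from 26028201 to 26034400 were longer by 3000, 2800, 2600 and 2400 bp.

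Some peaks lay over several peaks of the other group, and these split peaks numbered 17 in tough (3.70% of its peaks) against 8 in tender (1.55%). Over chromosomes 1 to 29 the shares were 2.31 and 0.841%. A peak must be long to reach over several others, and their median lengths were 4800 and 4700 bp, above the 2600 and 2000 bp of all peaks of their groups. The region from 39417201 to 39433400 held the first and the second by score, which overlapped each other. Its tough peak from 39422601 to 39433200 (score 525.2) lay over tender peaks with scores of 431.8 and 143.4, and its tender peak from 39421001 to 39427800 reached over a further tough peak with 29.3. The tough peak from 26196201 to 26210200 (427.7) lay over tender peaks with 33.8 and 328.9. The tough peak from 1514201 to 1524800 (265.6) lay over 2 with 202.1 and 55.3. The tender peak from 3745601 to 3750800 (205.2) lay over tough peaks with 92.7 and 131.3.

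The second list placed 499 tender and 440 tough peaks there, merged into 542 regions, 12.3 per Mb and the third highest of the 29 autosomes. Its bins ran from 0 to 44 regions, with 4 empty bins among 45. Tender peaks without a partner were 22.0% and tough peaks 14.5%, against 21.7 and 16.1% in that list over chromosomes 1 to 29. At least 2 times as high in tender were 24 pairs (6.90%) and in tough 7 (2.01%), against 7.21 and 2.07%. The second region by score in that list, from 40713801 to 40725000 in its positions, had 562.8 in tender and 506.0 in tough. Its next 3 regions, from 1986401, 4021201 and 27751401, also had close scores, 459.0 and 447.9, 451.4 and 436.4, and 388.4 and 441.3 in tender and tough.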

How the data were processed

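H3K4me3 ChIP-Seq was analysed in 2 libraries of pooled LD chromatin, grouped by their titles. By the methods, the authors aligned reads to bosTau4 with Maq, allowing 1 mismatch, and removed duplicate and multiply aligned reads. They called peaks with SICER (1.1 in the submitters' processing notes) with windows of 200 bp, gaps up to 400 bp, fragments of 190 bp and an E-value of 100. No control library is named. The authors deposited 2 lists of SICER score values per library. The totals in the paper, 12452 tender and 11395 tough peaks, are those of the second list. The list used here holds 12930 and 11535 peaks, so the processing the paper describes may not apply to it in every detail. In the list used, chromosome X reaches 148.8 Mb and no build is stated; in the second it ends at 87.9 Mb, so positions were never carried between them.

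Peaks were merged at an overlap of 1 bp, binned by 1 Mb, paired where they overlapped singly, and compared by a factor of 2 in score. Reads per peak were recovered from scores up to 180 (tolerance 1.5e-09). A simulated list of 3000 peaks was scored by the same formula, and 100% of its peaks with scores up to 180 were recovered. This checks the recovery, and not whether the deposited scores follow the formula. The regions named are the 10 highest-scoring ones, the 5 highest or longest of each kind, all empty bins, and the first and last region. The isolated regions, the other bins and the blocks were chosen after their values were seen. Members and lists were chosen with earlier results of these data known. Alternatives were a score limit at 2 times the lowest, equal numbers of peaks, a gap of 400 bp, a reciprocal overlap of 50%, each group alone, other bin, cluster and gap sizes, other score scales, and, added after the data were seen, the second list. No test was run across peaks, which are not replicates. Sequences and genes at peaks were left out because no genome of the build was at hand. Python 3.11.15 was used with scipy 1.17.1, numpy 2.4.6, matplotlib 3.10.9 and pandas 2.3.3.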

Additional observations from a re-analysis of the deposited data

Results flagged for a closer look

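The second list holds a region on chromosome 25 that stands far above the rest of that list's chromosome and was not used in the main measurements. It lay from 11140201 to 11141800 in the positions of that list, with a score of 816.9 in tender and 1347.9 in tough. The next region by score had 562.8 and 506.0. Per window of the region this came to 102.1 in tender and 168.5 in tough, against 10.05 and 9.04 for the next region. There is no control sample for these lists, and the difference between the groups was not tested.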

How the results depend on the processing

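Of 70 alternative values for 14 results, 42 stayed within the interval of the main value, or within a factor of 1.5 for counts, and 28 moved. Changes of direction were not looked for. The share of length in long gaps has no interval, so for it any change at the printed precision was counted as moved, however small. The fold of regions per Mb stayed between 2.34 and 2.56 under all 8 alternatives. A limit at 2 times the lowest score left 356 regions, 11 clusters and 11 and 0 pairs past a factor of 2 (tender and tough). It raised the share of regions in the fullest 10% of bins to 40.5% and the share in long gaps to 47.6%. The median scores rose to 91.4 and 81.1 and the tough median length to 2800 bp. For the shares called alone, only the group's own peaks were limited and all peaks of the other group were kept. These shares fell to 5.66% (tender) and 1.43% (tough). A reciprocal overlap of 50% raised these shares to 39.7 and 32.0% and left 3 tough pairs. Equal numbers of peaks gave 15.5% of tender peaks alone and a tender median score of 67.9. Bins of 2 Mb gave 39.3% in the fullest 10%, but with the number rounded up these were a larger part of the bins. Neighbours up to 10 or 50 kb gave 10 or 40 clusters. The share in long gaps was 42.5% with tender peaks, 43.4% with tough peaks, 41.68% in the second list and 49.7% with gaps from 300 kb. Dividing by the autosomal median gave 17 tender and 10 tough pairs, the score per window 85 and 10, and reads 11 tender pairs. The score limit also lowered the share of pairs past a factor of 2, from 7.75 to 4.56% of 241 pairs in tender. Higher median scores under the score limit, more peaks alone under the reciprocal overlap and more length in gaps from 300 kb follow from the settings themselves. The causes of the other changes were not tested. No paired analysis was possible because each group is 1 pooled library. With about 23 reads in a median peak, a factor of 2 in a single weak peak is near the limit of the counts.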
